A study of Homo sapiens with 2 samples.

Results

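Genes of amino acid transporters were compared between the human lung adenocarcinoma line PC9 and MTAC-P, a line derived from PC9 that resists EGFR tyrosine kinase inhibitors. They were taken as all symbols of the families SLC1, SLC3, SLC6, SLC7, SLC36, SLC38 and SLC43 with rows of the biotype protein_coding. This gave 58 of the 19089 protein-coding symbols in the tables. Another symbol, SLC38A3, had only rows of the biotype lincRNA and was left out. Of the 58 genes, 22 had a mean of at least 1 FPKM (a read count normalised for the length of the transcript and for the size of the library) over both libraries and were compared, and 36 were low.

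PC9 has an EGFR gene with an activating deletion and responds to EGFR inhibitors, and the labels describe MTAC-P only as its resistant derivative. The protocols in the labels name DMEM with serum as the medium of both lines and no inhibitor at harvest. With 1 library for each line, the differences below have no replicate check, standard error or p-value. The design text mentions triplicates, but each line has a single column of values, and nothing in the sources used here says whether cultures were pooled. The listed values summed to 693444 FPKM in PC9 against 685082 in MTAC-P; their depth in reads is unknown. Epithelial markers were present in both libraries, with EPCAM at 161 and 156 FPKM and KRT18 at 2328 and 2720. The 7 leukocyte, endothelial and fibroblast markers in the tables stood between 0 and 0.410 FPKM.

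Amino acids cross the cell membrane through carriers that differ in what they carry and in what drives them. Sodium-coupled carriers such as those of SLC1, SLC6 and SLC38 concentrate amino acids in the cell, while the heteromeric exchangers, made of an SLC3 heavy chain and an SLC7 light chain, trade 1 amino acid for another. Some SLC36 and SLC38 proteins sit on the lysosome and take part in the nutrient signal to the kinase mTORC1. In many carcinomas the cystine carrier SLC7A11, the leucine carrier SLC7A5 and the glutamine carrier SLC1A5 are known as abundant members.

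Most of the compared transporters were within 2-fold between the lines, and a single gene stood far from the rest. SLC1A3, which encodes the glutamate and aspartate transporter EAAT1 best known from astrocytes, was listed at 0.0510 FPKM in PC9 against 8.66 in MTAC-P, a log2((MTAC-P + 1)/(PC9 + 1)) of 3.20, called the log2 ratio from here on. SLC38A6, a less characterised member of the sodium-coupled neutral amino acid family, stood at 6.47 and 1.64 FPKM (log2 ratio -1.50). These were the only genes of the 22 at 2-fold or more, 1 in each direction. Over all 10569 protein-coding symbols, 2.87% reached 2-fold as higher in MTAC-P, 3.5% as lower and 6.37% in either direction, so the share of transporters past 2-fold was near the background. The median log2 ratio was 0.05 for the 22 transporters and -0.02 for all symbols, and 12 of the 22 lay above 0, against 47.9% of all symbols.

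**Figure D1:**
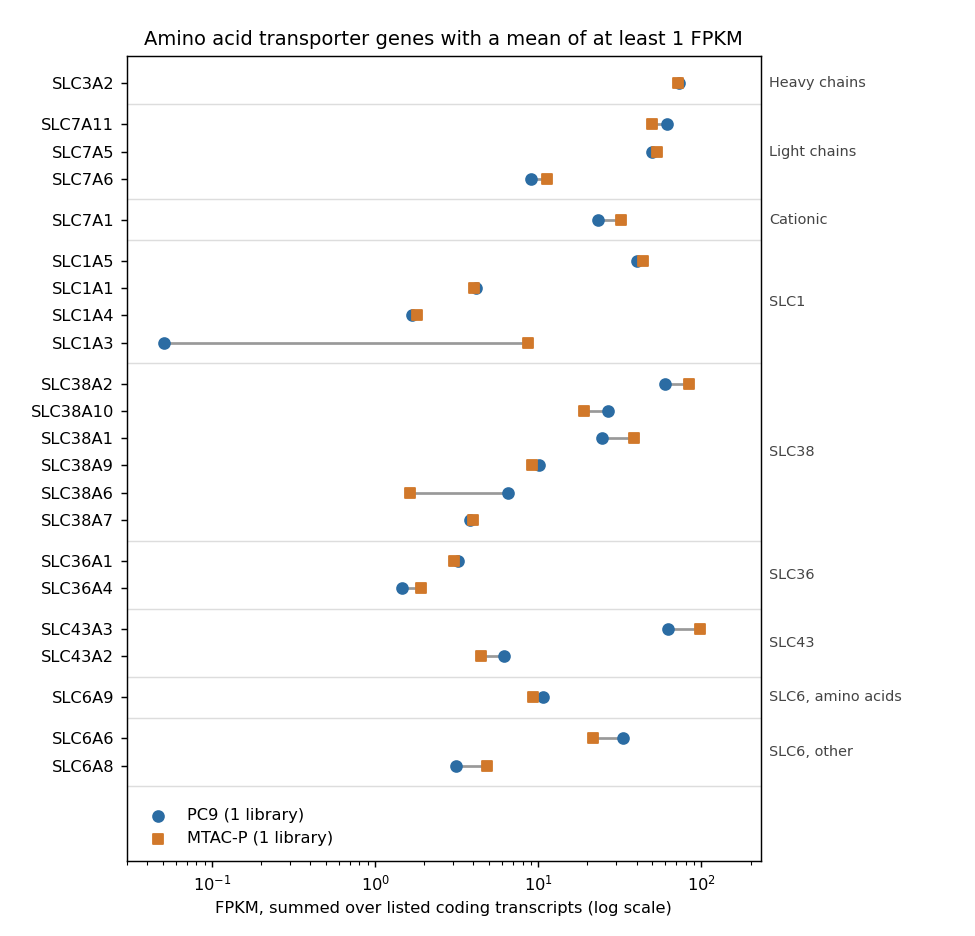
Level of each of the 22 compared transporter genes (FPKM, log axis) in the single PC9 library (circles) and the single MTAC-P library (squares), grouped by family or role; grey lines join the same gene. SLC1A3 spans 0.0510 to 8.66 FPKM and SLC38A6 6.47 to 1.64, while the other pairs lie close together.

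**Figure D2:**
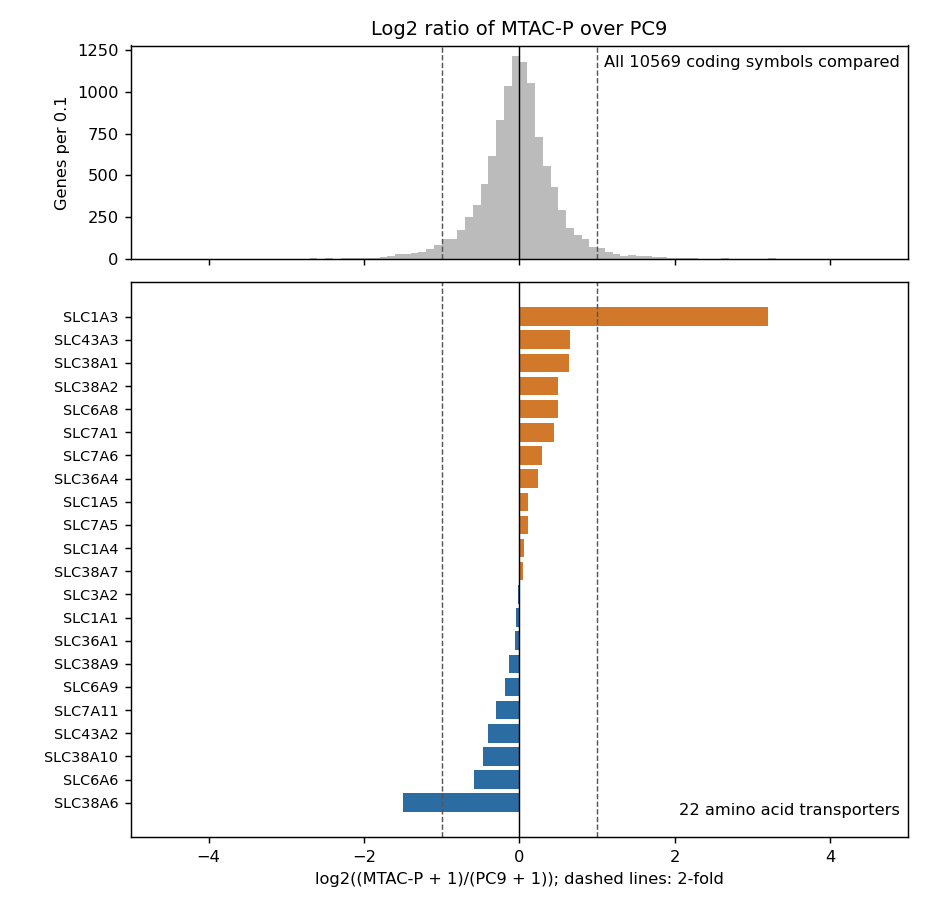
Log2 ratio of MTAC-P over PC9 for all 10569 protein-coding symbols compared (top, genes per bin of 0.1) and for each of the 22 transporters (bottom, bars), with dashed lines at 2-fold. Only SLC1A3 (3.20) and SLC38A6 (-1.50) pass a dashed line among the transporters.

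The SLC1 family holds sodium-coupled carriers of glutamate and aspartate and 2 exchangers of neutral amino acids. The difference of SLC1A3 (chromosome 5, 36606355 to 36688334, plus strand, GRCh38) lay mainly on 1 transcript of 4170 nt, listed at 0.0181 FPKM in PC9 against 7.82 in MTAC-P. A transcript of 3652 nt, with 8 exons against 10, starts further downstream at 36608329 and stood at 0.0330 and 0.836. Both of these transcripts were thus higher in MTAC-P. Only 2 of 7 coding transcripts of SLC1A3 in GENCODE were listed. The other 2 listed rows of the gene were at or near 0 in both libraries. Of the 10569 symbols 15 had a larger log2 ratio than SLC1A3. This gene reached the minimum mean of 1 FPKM only through its value in MTAC-P, so its place among the compared symbols is a description. In PC9 the gene ranked 33 among the 58 transporters by level, and in MTAC-P 14. The coding genes on either side did not share this difference: RANBP3L stood at 0.0732 and 0.0153 FPKM and NIPBL, which encodes the cohesin loader, at 4.76 and 3.19 (log2 ratio -0.46). Because the level in PC9 was close to 0, the size of the ratio depends on the pseudocount, from 1.44 with a pseudocount of 5 to 5.86 with 0.1.

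RefSeq (GRCh38.p14) gives SLC1A3 3 start sites, at 36596588, 36606606 and 36606954. The 250 bases before the first of them are shown because SLC1A3 had the largest log2 ratio of the 22 transporters and because this window holds a match to TGATGNAA, the core of the CARE motif bound by ATF4 and its partners in genes of the amino acid response. The match is in capitals, and the sequence is of the plus strand, 5′ to 3′.
SLC1A3, chr5:36596338-36596587: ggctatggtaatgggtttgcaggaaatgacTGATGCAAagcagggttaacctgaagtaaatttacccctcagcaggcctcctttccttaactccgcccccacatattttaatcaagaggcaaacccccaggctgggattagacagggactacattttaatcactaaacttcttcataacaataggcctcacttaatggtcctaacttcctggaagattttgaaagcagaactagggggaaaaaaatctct
The match begins 220 bases before that start site. The windows at the other start sites, 36606606 and 36606954, hold no match to TGATGNAA. Those sites lie nearer the start of the transcript of 4170 nt, which carried most of the level in MTAC-P. The transcripts that carried the SLC1A3 level start at 36606355 and 36608329, downstream of this window, and no listed row with a match in GENCODE starts at 36596588, so no level can be given for transcripts from the first site.

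The other SLC1 genes had close levels. SLC1A5, the exchanger ASCT2 that brings in glutamine, was the most abundant, at 40.4 FPKM in PC9 against 43.7 in MTAC-P (log2 ratio 0.11). Its main transcript of 1750 nt stood at 37.2 and 42.1, and a transcript of 1872 nt at 3.17 and 1.58. SLC1A4, the related exchanger ASCT1 of alanine, serine and cysteine, stood at 1.69 and 1.79 FPKM (0.05). SLC1A1, the glutamate and cysteine carrier EAAT3, summed to 4.16 and 4.02 FPKM (-0.04), but its 2 transcripts differed. The full transcript of 3722 nt stood at 4.16 and 2.21, while a transcript of 726 nt was listed at 0 in PC9 and at 1.81 in MTAC-P. With only the more abundant transcript, SLC1A1 had a log2 ratio of -0.68 in place of -0.04. SLC1A3 was thus the second most abundant SLC1 gene in MTAC-P, above SLC1A1 and SLC1A4, and the lowest of these 4 in PC9.

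The heteromeric exchangers were abundant and close in both lines. SLC3A2, the heavy chain 4F2hc (CD98) that carries most light chains to the surface (chromosome 11, 62856102 to 62888875), stood at 72.9 FPKM in PC9 against 72.1 in MTAC-P, a log2 ratio of -0.02 whose sign turned under 2 of 4 scalings. Its 5 listed transcripts lay on both sides: that of 1904 nt stood at 16.1 and 11.7 FPKM, that of 1993 nt at 4.11 and 2.83, that of 2161 nt at 31.1 and 31.7, that of 2222 nt at 15.1 and 19.4, and 1 without a match in GENCODE at 6.42 and 6.48. SLC3A1, the heavy chain rBAT of kidney and intestine, was at 0.0352 and 0.0394 FPKM, summed over 9 listed transcripts.

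Among the light chains, SLC7A11, which imports cystine in exchange for glutamate and is a known NRF2 target (chromosome 4, 138164097 to 138242349), stood at 61.8 FPKM in PC9 against 50.0 in MTAC-P (log2 ratio -0.30). Its single coding transcript in GENCODE was listed. SLC7A5, the LAT1 carrier of leucine and other large neutral amino acids, stood at 49.6 and 53.4 FPKM (0.10). SLC7A5P1, a pseudogene copy of SLC7A5, was listed at 11.3 and 15.5 FPKM, so the split of reads between the gene and its copy is uncertain. SLC7A6, the y+LAT2 exchanger of arginine and glutamine, stood at 9.03 and 11.2 FPKM (0.29). The light chains that pair with SLC3A2 summed to 121 FPKM in PC9 against 115 in MTAC-P, or 1.66 and 1.59 times the level of SLC3A2. SLC7A11 made up 51.1% of that sum in PC9 against 43.6% in MTAC-P, and SLC7A5 41.0% and 46.5%, so that the order of the 2 light chains was reversed between the libraries. In MTAC-P that order rests on 53.4 FPKM for SLC7A5 against 50.0 for SLC7A11, with the SLC7A5 value uncertain as said above. A scaling acts on a whole library and so cannot test the order. The log2 ratios of both genes kept their sign under the 4 scalings.

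SLC7A1, the CAT1 carrier of arginine and lysine and the main cationic member in most cells, stood at 23.2 FPKM in PC9 against 31.9 in MTAC-P (log2 ratio 0.45) from 1 listed transcript. Of the other cationic members, SLC7A2, an arginine carrier of liver and activated macrophages, was just outside the minimum mean at 1.12 and 0.518 FPKM. SLC7A4 was at 0.107 and 0.0232, and SLC7A3 and SLC7A14 were listed at 0 in both libraries.

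The SLC38 family, of sodium-coupled neutral amino acid carriers, went both ways. SLC38A2 (SNAT2), which is known to be induced when cells lack amino acids, stood at 59.6 FPKM in PC9 against 84.4 in MTAC-P (log2 ratio 0.50). SLC38A1 (SNAT1), a glutamine carrier, stood at 24.6 and 38.8 FPKM (0.64). These neighbours on chromosome 12 (46183063 to 46270017 for SLC38A1, 46358189 to 46372867 for SLC38A2) each rested on 1 listed transcript. SLC38A10, a less characterised member, was lower, at 26.7 and 19.0 FPKM (-0.47), with both its listed transcripts lower (14.1 and 9.67 for that of 2708 nt, 12.6 and 9.32 for that of 4300 nt).

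As listed, SLC38A6 (chromosome 14, 60981114 to 61083733, plus strand) owed its lower level to the transcript of 1688 nt, at 6.42 FPKM in PC9 against 1.33 in MTAC-P. The transcript of 1730 nt, which ends further downstream at 61083712, stood at 0.0507 and 0.312 and so went the other way. Only 2 of 7 coding transcripts of SLC38A6 in GENCODE were listed, so the split among its transcripts is uncertain. Of the 10569 symbols 116 had a smaller log2 ratio than SLC38A6. TRMT5, a tRNA methyltransferase gene whose exons overlap SLC38A6 on the other strand, stood at 6.31 and 5.90 FPKM (-0.08). With a pseudocount of 5 the SLC38A6 ratio was -0.79, short of 2-fold.

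Members of SLC38 that act at the lysosome were close. SLC38A9, which senses arginine in the lysosome and signals to mTORC1, stood at 10.2 and 9.18 FPKM (log2 ratio -0.13), and SLC38A7, which exports glutamine from the lysosome, at 3.81 and 3.96 (0.05). SLC36A1 (PAT1), a proton-coupled carrier of small neutral amino acids at the lysosome, stood at 3.22 and 3.05 FPKM (-0.06). SLC36A4 (PAT4), a carrier of proline and tryptophan, stood at 1.47 and 1.90 (0.24). None of these 4 genes was near 2-fold.

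SLC43A3 had the largest gain in FPKM of the family. This gene, whose product carries purine nucleobases although its relatives carry amino acids (chromosome 11, 57406954 to 57427580), stood at 62.2 FPKM in PC9 against 98.3 in MTAC-P, a difference of 36.1 FPKM and a log2 ratio of 0.65. It was the second most abundant member in PC9 and the most abundant in MTAC-P. As listed, the difference lay mainly on the transcript of 2617 nt, at 29.6 and 60.6 FPKM, which was by itself at 2-fold (1.01). Those of 2595 nt (15.8 and 19.9) and 2619 nt (16.8 and 17.8) were closer. The 3 transcripts have 14 exons each and nearly the same length and ends, so the split of reads among them is uncertain. Only 3 of 21 coding transcripts in GENCODE were listed. SLC43A2 (LAT4), which lets large neutral amino acids leave the cell, stood at 6.19 and 4.44 FPKM (-0.40). SLC43A1 (LAT3) was low, at 0.0950 and 0.129 FPKM.

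**Figure D3:**
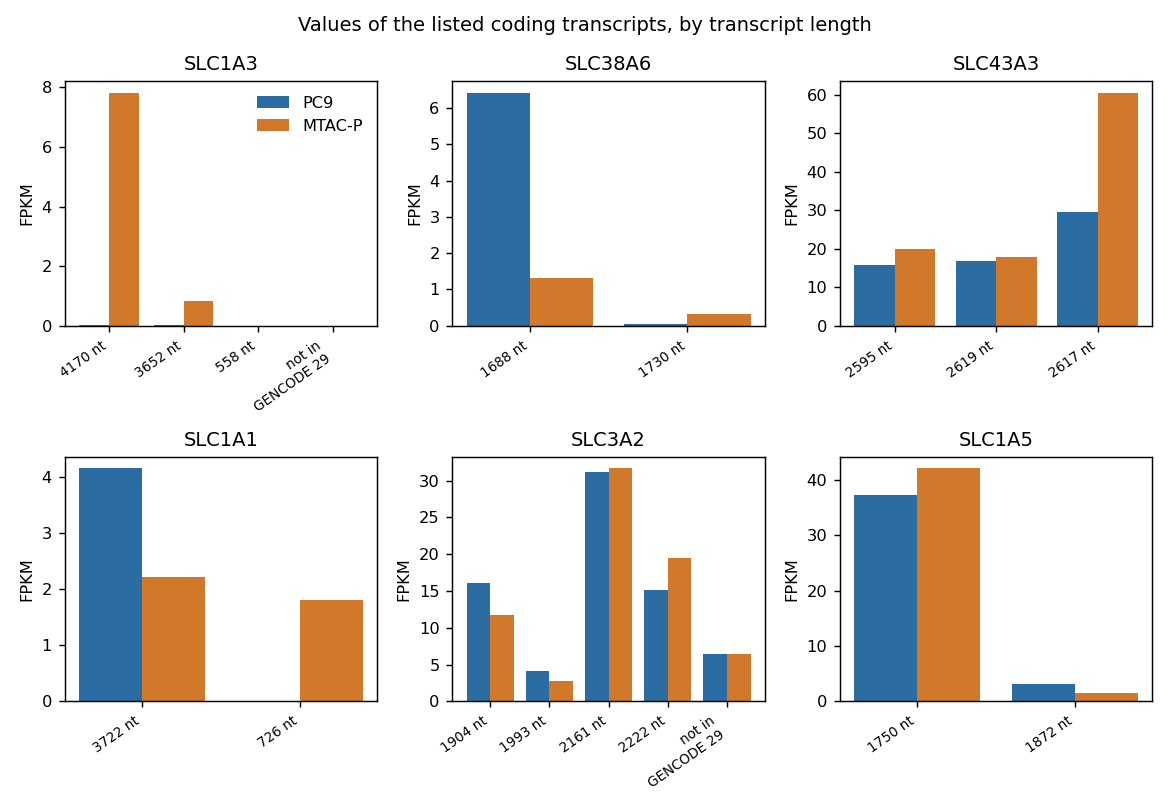
FPKM of every listed coding transcript of 6 transporter genes in PC9 (left bars) and MTAC-P (right bars), 1 library each, labelled by the transcript's length in GENCODE 29. The SLC1A3 difference lies mainly on the transcript of 4170 nt and that of SLC38A6 on the transcript of 1688 nt. That of SLC43A3 is listed mainly on the transcript of 2617 nt, but the split among its similar transcripts is uncertain.

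Of the 19 SLC6 genes, 3 were compared. SLC6A9 (GlyT1), the glycine carrier, stood at 10.7 FPKM in PC9 against 9.27 in MTAC-P (log2 ratio -0.18), nearly all of it on the transcript of 3130 nt (9.82 and 7.82). CCDC24, whose exons overlap SLC6A9 on the other strand, stood at 3.61 and 1.46 FPKM. SLC6A6, the taurine transporter, was lower, at 32.9 and 21.6 FPKM (-0.58), mainly on 1 listed transcript (27.4 and 18.1). Of its other listed transcripts, 1 was level (1.65 and 1.64) and the rest were lower at small values. None of its 5 listed transcripts had a match in GENCODE 29. SLC6A8, the creatine transporter, stood at 3.13 and 4.81 FPKM (0.49); it has near-identical copies elsewhere in the genome, so its values are uncertain, and the listed copy SLC6A10P was at 0.0431 and 0. Among the low SLC6 genes, SLC6A14, a broad carrier of neutral and cationic amino acids, stood at 0.0811 and 0.539 FPKM, and SLC6A17, a vesicle carrier of neurons, was just outside the minimum mean at 0.726 and 0.733.

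The 36 low genes included many carriers known from brain, kidney and intestine. Of these, 12 were listed at 0 in both libraries: SLC1A6, SLC6A5, SLC6A11, SLC6A12, SLC6A15, SLC6A18, SLC6A19, SLC7A3, SLC7A13, SLC7A14, SLC38A8 and SLC38A11. Another 7 were listed at 0 in 1 library only, with no value above 0.0316 FPKM in the other, among them SLC7A9, SLC7A10, SLC36A2, SLC36A3, SLC38A4 and SLC6A3. An exact 0 can be a failed estimate. Among those with values in both libraries were SLC1A2 (0.0248 and 0.0147 FPKM), SLC1A7 (0.231 and 0.104), SLC7A7 (0.439 and 0.102), SLC7A8 (0.200 and 0.0942), SLC38A5 (0.0915 and 0.0706) and SLC6A20 (0.000878 and 0.00810). The monoamine carriers SLC6A2 (0.0487 and 0.124) and SLC6A4 (0.0475 and 0.108), the GABA carrier SLC6A13 (0.209 and 0.0293), the proline carrier SLC6A7 (0.0227 and 0.0486) and the orphan SLC6A16 (0.0828 and 0.117) were also low. At the minimum mean of 1, SLC36A4 and SLC1A4 were just inside.

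By level, a few genes made up most of the family's RNA. The same 6 genes led in both libraries: SLC3A2, SLC43A3, SLC7A11, SLC38A2, SLC7A5 and SLC1A5, with 67.0% of the summed FPKM of all 58 members in PC9 against 69.3% in MTAC-P. Their order differed. SLC3A2 ranked 1 in PC9 against 3 in MTAC-P, SLC43A3 2 and 1, SLC7A11 3 and 5, SLC38A2 4 and 2, SLC7A5 5 and 4, and SLC1A5 6 in both. All members summed to 517 FPKM in PC9 against 580 in MTAC-P, which is 0.0784% and 0.0889% of the sum over all coding rows. By family, the SLC38 sum was 131 and 157 FPKM, the SLC43 sum 68.5 and 103, and the SLC1 sum 46.6 and 58.3. The 8 light chains summed to 121 and 115, the SLC6 carriers of amino acids to 11.5 and 10.6, and the other SLC6 genes, led by the taurine transporter, to 36.4 and 26.8. The cationic members summed to 24.4 and 32.5, the heavy chains to 72.9 and 72.1, and SLC36 to 4.71 and 4.95.

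Promoter windows (250 bases before to 50 after a RefSeq start) were found for 19 of the 22 compared genes, 34 windows in all; SLC7A11, SLC43A3 and SLC6A6 had none. The CARE core TGATGNAA, searched on both strands, was in 6 of the 34 windows (17.6%), against 3.62% of all 35116 windows. The genes were SLC1A3, SLC1A4, SLC1A5, SLC3A2, SLC7A1 and SLC38A1. Their log2 ratios ranged from that of SLC3A2 (-0.02) to that of SLC1A3 (3.20). The CARE windows of SLC1A4 and SLC7A1 lie at the start of their listed transcript. That of SLC1A5 lies at the start of the transcript of 1872 nt (3.17 and 1.58 FPKM), not of the main one. In those of SLC1A3, SLC3A2 and SLC38A1, no listed transcript found in GENCODE starts. The levels of these last 4 genes may therefore come mostly from other start sites. The antioxidant response element TGACNNNGC, bound by NRF2, was in 17.6% of the member windows and 13.3% of all windows, in SLC1A3, SLC1A5, SLC3A2, SLC7A1, SLC7A5 and SLC7A6. A match describes letters only and shows no binding, and some genes have several windows.

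Genes that use, sense or respond to amino acids were set beside the transporters. Branched-chain amino acid enzymes had the lowest median, -0.42 over 17 genes, with 3 above 0, against 47.9% of all symbols. By 2-fold or more, 3 were lower and 1 was higher, where 3.5% and 2.87% of all symbols were. BCAT1, the cytosolic transaminase that makes glutamate from branched-chain amino acids, stood at 3.84 FPKM in PC9 against 45.4 in MTAC-P (3.26). The 3 lower genes encode mitochondrial enzymes further down the route, IVD at 5.92 and 1.02 FPKM (-1.77), PCCB at 20.7 and 6.28 (-1.57) and BCKDHA at 3.57 and 1.02 (-1.18). Some other enzymes of that route were nearly level, such as MCCC2 at 17.2 and 18.2 FPKM (0.08), HIBCH (-0.05) and MCCC1 (-0.07). Of the GENCODE coding transcripts, 2 of 6 were listed for BCAT1, 0 of 8 for IVD, 1 of 14 for PCCB and 1 of 5 for BCKDHA. BCAT2, the mitochondrial transaminase, stood at 23.7 and 15.8 FPKM (-0.56).

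Enzymes of glutamine, glutamate and aspartate had a median of -0.10 over 19 genes, with 1 at least 2-fold lower. That gene was GLS2, a glutaminase known from liver, at 2.22 and 0.346 FPKM (-1.26). GLUL, which makes glutamine from glutamate, stood at 17.5 and 26.1 (0.55). Cystine and glutathione genes had a median of -0.01 over 15, and only LANCL1, a glutathione-binding protein gene, passed 2-fold (8.33 and 0.00149 FPKM, -3.22), with 3 of 7 coding transcripts listed.

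Genes of the ATF4 and amino acid response had a median of 0.15 over 23, with 17 above 0, against 47.9% of all symbols. The count at 2-fold was 1 in each direction, which is near the background shares of 2-fold given above. ATF4 itself, the transcription factor of this response, stood at 372 and 511 FPKM (0.45), with all 3 coding transcripts listed. STC2, a secreted glycoprotein, was at least 2-fold higher (14.7 and 31.6 FPKM, 1.05), and EIF4EBP1, a repressor of translation under mTORC1, at least 2-fold lower (57.8 and 23.1, -1.29). ASNS, asparagine synthetase, stood at 20.2 and 25.1 FPKM (0.29) and TRIB3, a feedback inhibitor, at 58.9 and 56.5 (-0.06). Genes of amino acid sensing upstream of mTORC1 had a median of -0.09 over 30, with GATSL2, the older symbol of the arginine sensor subunit CASTOR2, past 2-fold (9.50 and 0.831 FPKM, -2.52). GENCODE 29 held no coding transcript under this older symbol, so the share of its transcripts that was listed is unknown. The 5 compared genes of other amino acid and peptide transporters had a median of -0.16 and none at 2-fold; the most abundant were SLC15A4, a histidine and peptide carrier (12.2 and 18.3 FPKM, 0.55), and SLC17A5, the lysosomal sialic acid carrier (14.5 and 12.9, -0.16). The lists differ in size and share genes, and their medians are given as descriptions.

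**Figure D4:**
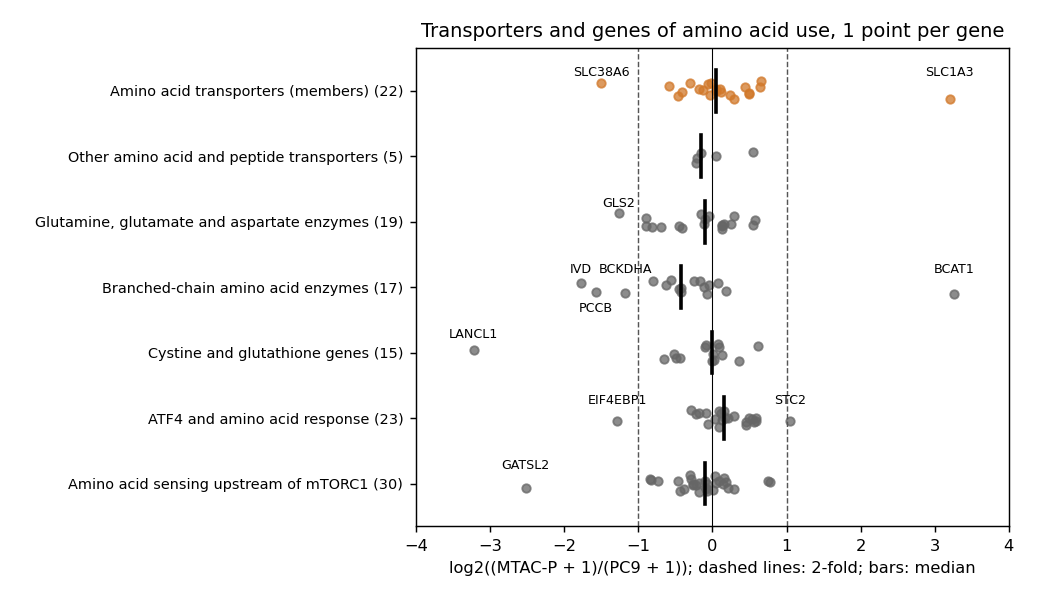
Log2 ratio of MTAC-P over PC9 for the 22 transporters and for the compared genes of 6 related lists, 1 point per gene, with the median of each list as a black bar, the number of genes in brackets and dashed lines at 2-fold; genes past 2-fold are named. The branched-chain enzymes have the lowest median (-0.42), with BCAT1 at 3.26.

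The tables limit these values in 2 ways. All coding transcripts in GENCODE 29 were listed for 2 of the 22 compared genes, SLC7A11 and SLC1A1, so the other levels are sums over a part of each gene's transcripts. Exons of 10 compared genes overlap exons of another gene. For 9 of them this is on the other strand, among them SLC38A6, SLC7A11 and SLC7A5, and the sources used here do not say whether the counting used strand. SLC43A3 overlaps AP000781.2 and SLC38A6 overlaps AL160236.2 on the same strand, where strand would not separate the reads.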

How the data were processed

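RNA-seq of 2 cell lines was used, 1 library each. Trim Galore, TopHat and Cufflinks were used on build hg38, per the submitters' processing notes, with versions not given in the sources used here. Values that the authors deposited, 1 per transcript, were read as FPKM because Cufflinks is named; the tables do not state the unit. Each table has 65536 lines, a spreadsheet row limit, so transcripts after number 437205 were not analysed here. No counts or intervals are given in the tables, and the depth is unknown.

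Rows with the biotype protein_coding were summed per symbol. Symbols with a mean of at least 1 FPKM were compared as log2((MTAC-P + 1)/(PC9 + 1)), and 2-fold on this scale was counted. Transcripts, lengths and coordinates came from GENCODE release 29 (GRCh38, the assembly that hg38 names), and promoter windows from RefSeq (GRCh38.p14). Every compared transporter is named; some low or related genes are not reported here. Of each related list, up to 4 members past 2-fold are named or, with none, the 2 most abundant; others named from those lists were chosen after their values were seen. The members and lists were chosen with earlier results of these data known. The ratio step was tested on simulated data. Python 3.11.15, pandas 2.3.3, numpy 2.4.6 and matplotlib 3.10.9 were used. Alternatives were a pseudocount of 0.1 or 5, 4 scalings, a minimum mean of 5 or none, all biotypes, the highest transcript only, symbols with 1 row, symbols with all coding transcripts listed, and 1.5-fold or 4-fold.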

Additional observations from a re-analysis of the deposited data

How the results depend on the processing

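No paired analysis was possible because there was a single library per line, and for the same reason no replicate could be left out. Of 222 values of the 22 transporters under the alternatives, 220 kept their side of 2-fold and none at 2-fold changed sign. Many of the 222 could not change, so the count does not measure robustness. Another minimum mean, symbols with 1 row and symbols with all coding transcripts listed alter only which genes are compared. Genes with 1 row also keep their value with the highest transcript only. SLC38A6 dropped below 2-fold with a pseudocount of 5 (-0.79), and SLC43A3 passed 2-fold with the highest transcript only (1.01). The count of transporters at least 2-fold higher was 1, and became 2 with the highest transcript only, 3 at 1.5-fold and 0 with a minimum mean of 5, with symbols of 1 row or with all coding transcripts listed, where SLC1A3 is not among the genes compared. The count at least 2-fold lower was 1, and became 0 with a pseudocount of 5, at 4-fold, and in the same 3 settings of fewer genes, where SLC38A6 is not compared. The median of the transporters, 0.05, was 0.17 over the 8 with 1 row and -0.17 over the 2 with all coding transcripts listed; in the other alternatives it moved by less than 0.1. Over all protein-coding symbols 303 were higher and 370 lower. With a pseudocount of 0.1, 445 were higher and 604 lower. The counts (higher, then lower) were 119 and 115 with a pseudocount of 5, 177 and 192 at a mean of at least 5, 116 and 129 with 1 row, 73 and 73 with all coding transcripts listed, 862 and 1073 at 1.5-fold, and 55 and 45 at 4-fold; apart from the pseudocount, these compare fewer genes or use another threshold. The cause of the other changes was not tested. Scalings shifted the log2 ratio by -0.03 to 0.02. Without read depth no precision can be given for the low transporters.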
